A study of Mus musculus with 8 samples.

Results

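The stress-induced keratins are the type II keratins Krt6a and Krt6b and the type I keratins Krt16 and Krt17. They were taken by symbol through the mouse GENCODE annotation, and all 4 were found among the 55416 genes of the count table. All 4 also passed the filter on low counts, which left 13147 genes to test. The RNA came from dorsal epidermis of mice at postnatal day 4, as 4 libraries labelled WT (control) and 4 from mice with an epidermis-specific deletion of Rora (RoraEKO). Rora encodes the nuclear receptor RORα. In RoraEKO mice, floxed Rora alleles (Rora flox/flox) were combined with a K14-Cre transgene, which puts the recombinase under the promoter of KRT14, a keratin of the basal layer of stratified epithelia, including that of hair follicles. Whether the controls carry the flox alleles or the transgene was not stated. Libraries are named here by the letter and number of their titles, A1, B1, C1 and C6 for control and A3, B4, C2 and C3 for RoraEKO. Per the study's description each library stands for a mouse, and p-values measure the spread between these 8 libraries. What the shared title letters stand for was not stated.

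Keratins build the intermediate filaments of epithelial cells as pairs of a type I with a type II protein. In resting interfollicular epidermis, basal keratinocytes make mainly Krt5 with Krt14, and the spinous cells above them make Krt1 with Krt10. The stress keratins are best known for their induction in the suprabasal layers after wounding, barrier loss or hyperproliferation, where the Krt6 proteins pair with Krt16 or Krt17. In unperturbed skin they are found mostly in hair follicles, nails and palmoplantar skin, and Krt17 in particular is a keratin of the outer root sheath.

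Krt6a, Krt6b and Krt16 were higher in RoraEKO epidermis, and Krt17 did not pass the test. The cutoffs were an adjusted p below 0.05 and a change of more than 1.5-fold in the quasi-likelihood test of edgeR, and 3 of the 4 genes passed them, all upward. Over all genes tested, 2.3% passed the same cutoffs in that direction. In the same 3 genes every RoraEKO library lay above every control library, which held for 5.4% of all genes tested. By fitted change the order was Krt6b, Krt16, Krt6a and Krt17.

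Some facts of the whole series bear on these genes. The smallest library held 17286903 counts and the largest 26705533. Levels are given as CPM, the count scaled by library size and TMM factor to a common total, on which 3 counts amount to 0.112 to 0.196 CPM. That floor covers counting error only. In the whole contrast 725 of 13147 genes, or 5.51%, were past the cutoffs, 302 higher and 423 lower in RoraEKO (2.3% and 3.22%). At an unadjusted p below 0.05, 7.92% of genes were higher and 10.3% lower in edgeR. DESeq2 called 3.64% of 13129 genes higher and 4.21% lower, and in 7.54% of the genes tested every RoraEKO library lay below every control. These shares are the background for the counts of listed genes below. The level of Rora did not check the labels, as it was 212 ± 66.6 CPM in control and 196 ± 34.6 CPM in RoraEKO (SD, n = 4 libraries each), with a log2 fold change of -0.11 (adjusted p = 0.877, edgeR). The controls C1 and C6 stood apart from the other 6 libraries. Their Xist levels were 416 and 527 CPM with Ddx3y at 0, whereas elsewhere Xist was at most 0.0546 CPM and Ddx3y 15.7 to 24.1 CPM. No RoraEKO library was like C1 and C6 in these genes, so this difference was not balanced between the groups. The members were therefore also fitted without C1 and C6. Spinous markers went with the labelled tissue, and hair follicle markers were also high. Summed spinous markers (Krt1, Krt10, Krtdap and Sbsn) stood at 44264 to 69729.6 CPM in control and 85106 to 106043 CPM in RoraEKO. Krt1 and Krt10 carried that sum. Summed inner root sheath markers stood at 7900.5 to 47916 CPM in control and 14658 to 32131 CPM in RoraEKO. In A1 they exceeded the spinous sum, at 47916 and 44264 CPM. The 6 dermal fibroblast markers summed to at most 10.4 CPM. Basal keratins were sparse, with Krt14 at 61.1 to 203 CPM and Krt5 at 72.1 to 263 CPM in control, against 19686 to 38599.6 CPM for Krt1.

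Krt16 was the member that passed the cutoffs in every fit. Its gene (ENSMUSG00000053797) lies on the reverse strand of GRCm39 at chr11:100136917-100139795. It encodes the type I keratin that partners Krt6 proteins in stressed epidermis. Krt16 stood at 187 CPM in A1, 193 in B1, 145 in C1 and 96.2 in C6 among controls. In RoraEKO it stood at 1280.1 CPM in A3, 2609.5 in B4, 1172 in C2 and 1029.9 in C3. The lowest RoraEKO library was well above the highest control, and B4 was above the other 3 RoraEKO libraries. The means were 155 ± 44.7 CPM in control and 1523 ± 732 CPM in RoraEKO (SD, n = 4 each), a 9.8-fold difference with a log2 fold change of 3.29 (SE 0.38, 95% interval 2.48 to 4.11, adjusted p = 0.000911, edgeR). Without B4 the log2 fold change was 2.90 (adjusted p = 0.000955, edgeR), and without both C1 and C6 it was 3.06 (adjusted p = 0.019, edgeR). Krt16 passed the cutoffs under all 22 other settings and sets of libraries that were fitted, with log2 fold changes between 2.90 and 3.47. In bulk RNA, more cells that express a gene and more transcript per cell cannot be told apart, and this holds for each result here.

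**Figure D1:**
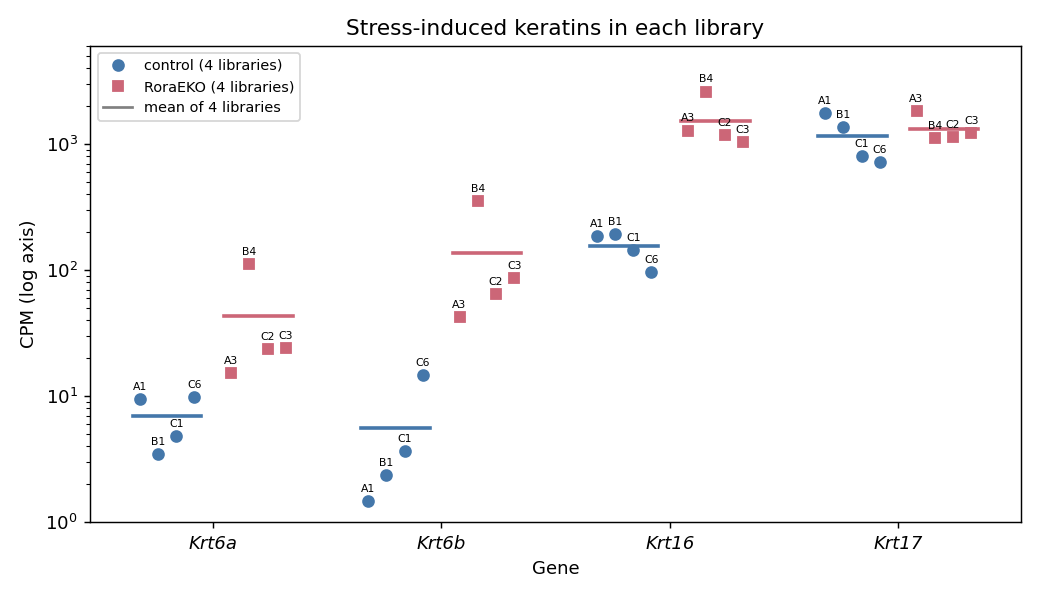
The level of each stress-induced keratin in each of the 8 libraries, in CPM on a log axis. Circles are the 4 control and squares the 4 RoraEKO libraries, each with its title letter and number, and horizontal lines are group means. The groups are apart for Krt6a, Krt6b and Krt16 and overlap for Krt17, and B4 is the highest library for the first 3 genes.

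Krt6b had the largest fitted change and started from a very low level. The gene (ENSMUSG00000023041; GRCm39, reverse strand, chr15:101584458-101588722) encodes one of the pair of mouse Krt6 proteins. Control libraries held 1.48 CPM in A1, 2.35 in B1, 3.69 in C1 and 14.8 in C6. RoraEKO libraries held 42.3 CPM in A3, 356 in B4, 65 in C2 and 86 in C3. C6 was far above the other controls and B4 far above the other RoraEKO libraries, but the groups did not overlap. The mean was 5.58 ± 6.21 CPM in control and 137 ± 147 CPM in RoraEKO (SD, n = 4 each), and the fitted difference was 24.4-fold, or 4.61 on the log2 scale (SE 0.966, 95% interval 2.52 to 6.69, adjusted p = 0.0183, edgeR). Both SDs exceeded the mean of their group. Without B4 the log2 fold change was 3.52 (adjusted p = 0.0294, edgeR), and without both C1 and C6 it was 6.24 (adjusted p = 0.0353, edgeR). The gene missed the cutoff when B1 alone was left out (4.36, adjusted p = 0.0676, edgeR) or C1 alone (4.45, adjusted p = 0.0647, edgeR).

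Krt6a, the neighbouring type II gene (ENSMUSG00000058354; GRCm39, reverse strand, chr15:101598345-101602742), changed less and was close to the cutoff. In control it was 9.55 CPM in A1, 3.5 in B1, 4.83 in C1 and 9.87 in C6. In RoraEKO it was 15.3 CPM in A3, 111 in B4, 23.8 in C2 and 24.2 in C3. The groups did not overlap, and A3 was the RoraEKO library nearest to the highest controls, A1 and C6. The means of 6.94 ± 3.25 and 43.5 ± 45 CPM (SD, n = 4 each) gave a 6.24-fold difference, 2.64 on the log2 scale (SE 0.722, 95% interval 1.19 to 4.09, adjusted p = 0.044, edgeR). Much of the size came from B4, without which the log2 fold change was 1.60 (adjusted p = 0.0456, edgeR). The call was lost without both C1 and C6 (2.79, adjusted p = 0.19, edgeR), and on leaving out single libraries it was kept only without A3 or without B4. Without A1, B1, C1, C6, C2 or C3 the log2 fold change ran from 2.43 to 2.92, with adjusted p from 0.0521 to 0.124 in edgeR.

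Reads of Krt6a and Krt6b are hard to tell apart, so the split between them is uncertain. Their annotated mRNAs were identical at 93.3% of aligned bases, and 43.6% of the 50-base windows and 29.5% of the 100-base windows of Krt6a occurred unchanged in Krt6b. The deposited counts of both genes were fractional in all 8 libraries, as happens when reads are shared out by estimation. Opposite-strand genes also overlap them (Gm49428 and Gm55158 for Krt6a, Gm55157 for Krt6b), and the strand setting of the counting was not stated. The sum of Krt6a and Krt6b does not depend on the split. It was 12.5 ± 8.37 CPM in control and 181 ± 192 CPM in RoraEKO (SD, n = 4 each), 14.4-fold apart (log2 fold change 3.85, 95% interval 2.18 to 5.51, adjusted p = 0.0145, edgeR). The summed level was 5.85 to 24.7 CPM over the controls and 57.7 to 467 CPM over the RoraEKO libraries, without overlap. Without B4 the RoraEKO mean of the sum was 85.6 ± 26.4 CPM (SD, n = 3), 6.84 times that of control, a value added after seeing the data. Krt16 shared 11.9% of its 50-base windows with Krt14 and 0.379% with Krt17, and its counts were fractional in 6 libraries.

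Krt17 was the most abundant of the 4 genes in control epidermis and its groups overlapped. The gene (ENSMUSG00000035557; GRCm39, reverse strand, chr11:100147040-100151974) encodes a type I keratin of the outer root sheath and of wounded epidermis. It stood at 1765 CPM in A1, 1376 in B1, 802 in C1 and 717 in C6 among controls, and at 1837 CPM in A3, 1107 in B4, 1129.8 in C2 and 1222 in C3 in RoraEKO. A1 and B1 lay within the RoraEKO range, and C1 and C6 lay below it. The means were 1165 ± 496 and 1324 ± 346 CPM (SD, n = 4 each), with a log2 fold change of 0.18 (SE 0.355, 95% interval -0.52 to 0.89, adjusted p = 0.847, edgeR). That interval does not show that the level was the same in both groups. The sign depended on the pair of controls that stood apart, as without C1 and C6 the log2 fold change was -0.19 (adjusted p = 0.769, edgeR).

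Within title letters the direction held for 3 genes. RoraEKO minus control for Krt16 was 2.77 on the log2 scale for letter A, 3.76 for B and 3.21 for C. For Krt6b it was 4.75, 7.19 and 3.32, and for Krt6a 0.68, 4.95 and 1.78, in the same order of letters. For Krt17 it was 0.06, -0.31 and 0.63. Letters A and B hold 1 library of each group and C holds 2 of each, and these values are a description with no test within letters. With the letter as a block, log2 fold changes were 3.23 for Krt16 (adjusted p = 0.00014), 4.30 for Krt6b (adjusted p = 0.00963), 2.13 for Krt6a (adjusted p = 0.069) and 0.25 for Krt17 (adjusted p = 0.48) in edgeR, so that only the call of Krt6a was lost.

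Within the group, the shares of Krt17 and Krt16 did not overlap between genotypes, which is a description without a test. Per kilobase of exon, the mean level in control was 2.87 CPM per kb for Krt6a, 2.5 for Krt6b, 95.2 for Krt16 and 696 for Krt17. In RoraEKO the same per-length levels were 18, 61.5, 933 and 791 CPM per kb. Krt17 made up 83.8 to 89.8% of the summed per-length level of the 4 genes in the control libraries and 26.8 to 57.6% in RoraEKO. The Krt16 share was 9.77 to 15.6% in control and 41.1 to 64.8% in RoraEKO. The combined Krt6 share stayed low, at 0.265 to 2.15% in control and 1.33 to 8.32% in RoraEKO, and those ranges overlap. Per length, the type II Krt6 pair was at 0.00265 to 0.022 of the type I pair in control and 0.0134 to 0.0907 in RoraEKO.

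**Figure D2:**
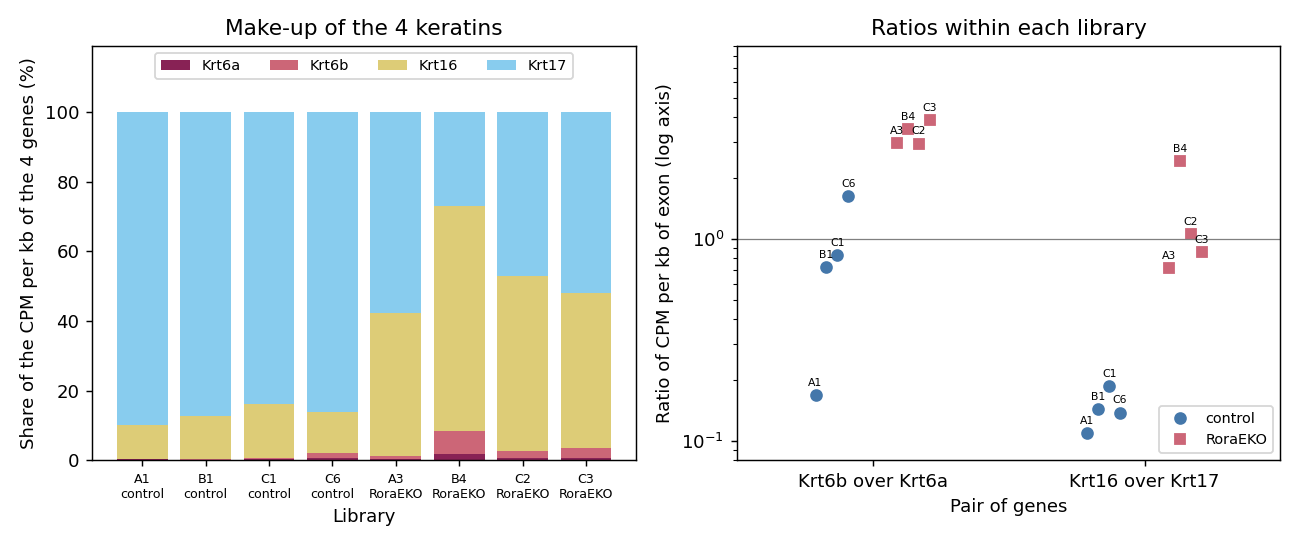
Left, the share in percent of each gene in the summed CPM per kb of exon of the 4 genes, 1 bar per library. Right, ratios of CPM per kb for Krt6b over Krt6a and Krt16 over Krt17 on a log axis, circles for control and squares for RoraEKO libraries, with a line at equal levels. Krt17 makes up at least 83.8% of each control bar and at most 57.6% of each RoraEKO bar, and neither ratio overlaps between the groups.

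Whether members changed by different amounts was tested on log2 ratios within libraries, for 6 pairs of genes. A comparison of 4 with 4 libraries cannot give an exact two-sided permutation p below 0.0286, and adjusted over 6 pairs none was below 0.05. Krt16 relative to Krt17 differed by 2.99 on the log2 scale (SE 0.418, exact permutation p = 0.0286, adjusted 0.0572), and the per-length ratio was 0.109 to 0.186 in control and 0.714 to 2.42 in RoraEKO. Krt6b relative to Krt6a differed by 2.35 (SE 0.678, exact permutation p = 0.0286, adjusted 0.0572). Its per-length ratio was 0.168 to 1.62 in control and 2.96 to 3.85 in RoraEKO, so Krt6b exceeded Krt6a in each RoraEKO library and in only C6 among controls. This ratio rests directly on the division of shared reads. Krt6b relative to Krt17 differed by 4.39 (SE 1.26, exact permutation p = 0.0286, adjusted 0.0572), and Krt6a relative to Krt17 by 2.04 (SE 0.893, exact permutation p = 0.0571, adjusted 0.0857). The changes of Krt6b and Krt16 differed by 1.40 (SE 1.02, exact permutation p = 0.229, adjusted 0.229), and those of Krt16 and Krt6a by 0.94 (SE 0.64, exact permutation p = 0.229, adjusted 0.229), with ratios that overlapped between the groups. Single libraries moved some of these differences. Krt6b minus Krt16 was 0.87 without A1 and 2.27 without C6, Krt16 minus Krt6a was 0.52 without C6, and Krt6a minus Krt17 was 1.37 without B4.

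The stress keratins remained a small part of the keratin transcripts. Together they made up 1.23 to 2.14% of the CPM of all keratin genes in control and 2.24 to 3.09% in RoraEKO. Without Krt17 the remaining 3 genes made up 0.183 to 0.224% in control and 1.08 to 2.27% in RoraEKO. All keratin genes together took 6.59 to 9.2% of the library in control and 9.97 to 13.5% in RoraEKO. Krt16 was 0.368 to 1.09% of the level of Krt10, the type I keratin of spinous cells, in control and 3.01 to 5.65% in RoraEKO, as CPM without correction for length. Relative to Krt14, the basal type I keratin, Krt16 was 92.4 to 178% in control and 369.8 to 1219% in RoraEKO. These ranges did not overlap although Krt14 itself was highest in B4. Krt14 was sparse in these libraries, at 61.1 to 203 CPM in control, so these ratios have a small denominator. The summed spinous markers were also higher in each RoraEKO library, through Krt1 and Krt10. Krtdap and Sbsn, also on that list, overlapped between the groups, with log2 fold changes of -0.34 and -0.04. The ratios of Krt16 and Krt6b to Krt10 did not overlap between the groups.

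Of the keratin genes around the stress keratins, Krt77 was the 1 other gene past the cutoffs, a count that depended on the fit. It was 6 without A1 or in DESeq2, 4 in the likelihood ratio test, 3 in the exact test or with the title letter as a block, 2 without C1, and 0 without C2 or with Xist as a covariate. Keratin genes sit in 2 clusters, type II on chromosome 15 and most type I on chromosome 11, with 55 keratin genes in the table and 44 tested. On chromosome 15, 22 were tested, 2 were past the cutoffs upward (Krt6a and Krt6b) and 1 downward (Krt77). On chromosome 11, 22 were tested, and Krt16 was the 1 past the cutoffs. Krt6b and Krt6a are 9.6 kb apart and Krt16 and Krt17 are 7.2 kb apart. The start of Krt5, the basal type II keratin, lies 18.6 kb from that of Krt6a, and its levels overlapped (172 ± 79.6 CPM in control and 148 ± 149 CPM in RoraEKO, SD, n = 4 each; log2 fold change -0.22, 95% interval -1.56 to 1.13, adjusted p = 0.918, edgeR). Krt14, with its start 41.3 kb from that of Krt16, was 132 ± 60.9 CPM in control and 287 ± 282 CPM in RoraEKO (log2 fold change 1.12, 95% interval -0.23 to 2.48, adjusted p = 0.382, edgeR). Over the 40 tested keratins outside the group the median log2 fold change was 0.07, with a range from -1.83 to 1.77, beside -0.04 over all genes tested.

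**Figure D3:**
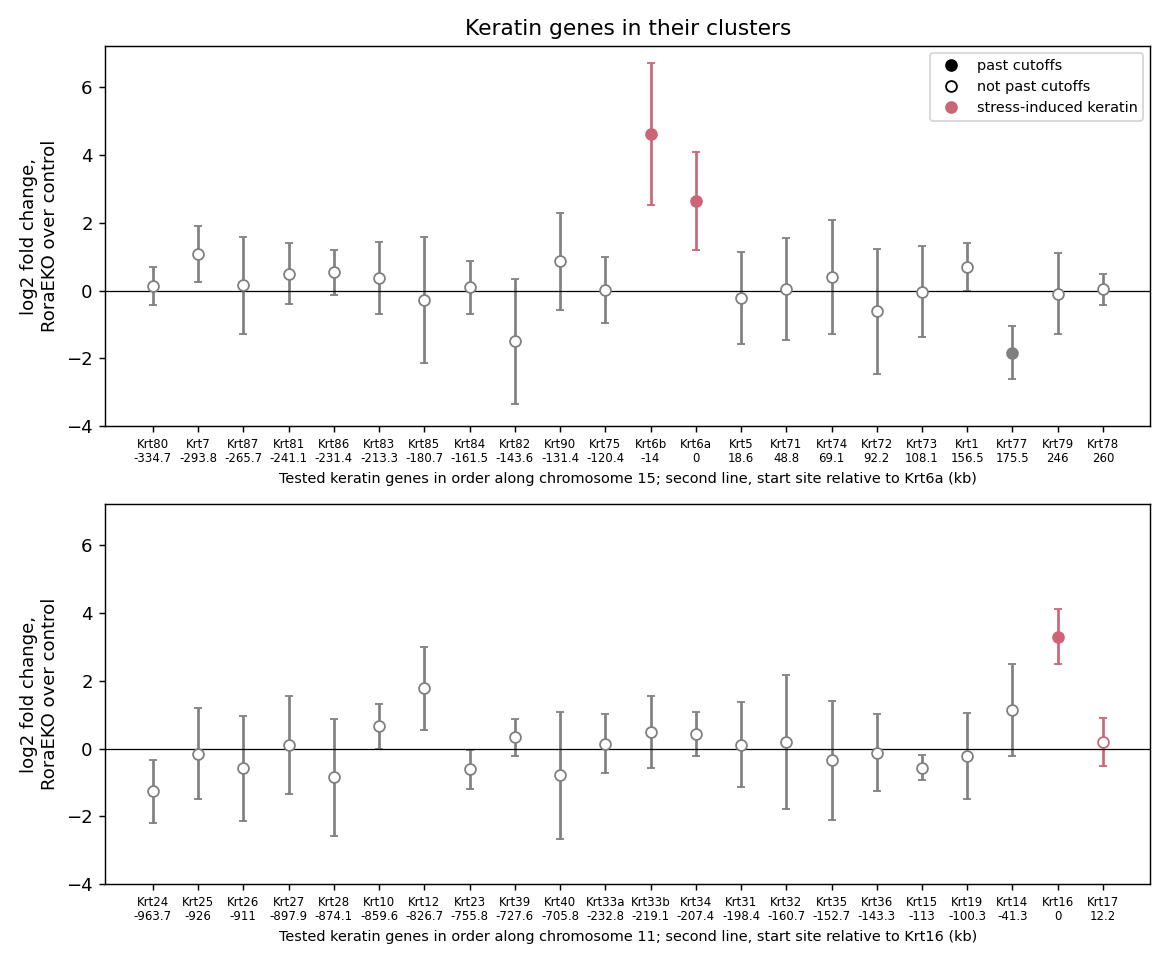
Log2 fold change, RoraEKO over control, of each tested keratin gene in its order along chromosome 15 (top) and 11 (bottom), with the distance of its start from that of Krt6a or Krt16 in kb under its name. Points are fitted values and bars 95% intervals, filled points are past the cutoffs, and the stress-induced keratins are red. Filled points are Krt6a, Krt6b, Krt77 and Krt16.

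Among the interfollicular keratins listed as partners, 8 were tested, 0 were past the cutoffs upward and 1 downward in edgeR, and their median was 0.08 on the log2 scale. At an unadjusted p below 0.05 the edgeR counts were 1 higher and 2 lower, and DESeq2 called 2 higher and 1 lower. Krt77, a type II keratin of suprabasal epidermis, was 252, 601, 284 and 659.9 CPM in A1, B1, C1 and C6. It was 99.4, 154, 93.4 and 158 CPM in A3, B4, C2 and C3. The groups did not overlap, and Krt77 fell by 1.83 on the log2 scale (SE 0.412, adjusted p = 0.0139, edgeR). The call was lost without C2 (log2 fold change -1.64, adjusted p = 0.0574, edgeR), without both C1 and C6 (-1.71, adjusted p = 0.0582, edgeR) and with Xist as a covariate (-1.72, adjusted p = 0.055, edgeR). Krt1 was 29965 ± 8117 CPM in control and 48566 ± 3699 CPM in RoraEKO (SD, n = 4 each), and its log2 fold change was 0.70 (adjusted p = 0.287, edgeR). Krt10 was 23895 ± 4631 and 37714 ± 5663 CPM (log2 fold change 0.66, adjusted p = 0.274, edgeR), and for these 2 genes every RoraEKO library was above every control without the change passing the main test, although DESeq2 called both (adjusted p = 0.0111 for Krt1 and 0.00763 for Krt10). Of the simple and other epithelial keratins, 6 of 13 could be tested and 0 passed in edgeR, with 2 higher and 1 lower at an unadjusted p below 0.05 and 2 higher in DESeq2.

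Krt17 is also a follicle keratin, and its order over the libraries resembled that of Krt75 but not that of every follicle gene. Krt75, the type II keratin of the companion layer, was 1511, 1347, 628 and 398 CPM in A1, B1, C1 and C6, and 1581, 778, 906 and 679 CPM in A3, B4, C2 and C3. The ratio of Krt17 to Krt75 in CPM was 1.02 to 1.8 in control and 1.16 to 1.8 in RoraEKO. Both genes were highest in A1 and A3 and lowest in C6. Summed inner root sheath markers ranged from 7900.5 to 47916 CPM in control and 14658 to 32131 CPM in RoraEKO, with C6 lowest and A1 highest. The infundibulum markers had another order, with sums of 689, 207, 244 and 488 CPM in A1, B1, C1 and C6 and 514, 271, 134 and 596 CPM in A3, B4, C2 and C3, so that C6 was above B1. Within the outer root sheath list, Krt75, Lhx2 and Gjb6 were lower in C6 than in B1, at 398 and 1347, 0.976 and 1.53, and 26 and 36.2 CPM, and Sox9 and Barx2 were higher, at 7.96 and 6.01 and at 214 and 207 CPM. The outer root sheath and companion layer markers summed to 647 to 1764 CPM in control and 933 to 1852 CPM in RoraEKO, and 0 of their 5 tested genes passed in edgeR. Of the 10 follicle keratins tested, 0 were past the cutoffs in edgeR, 0 had an unadjusted p below 0.05 and 0 were called by DESeq2. Their median was -0.06 on the log2 scale. The part of follicle content in the levels of Krt17 was not tested.

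**Figure D4:**
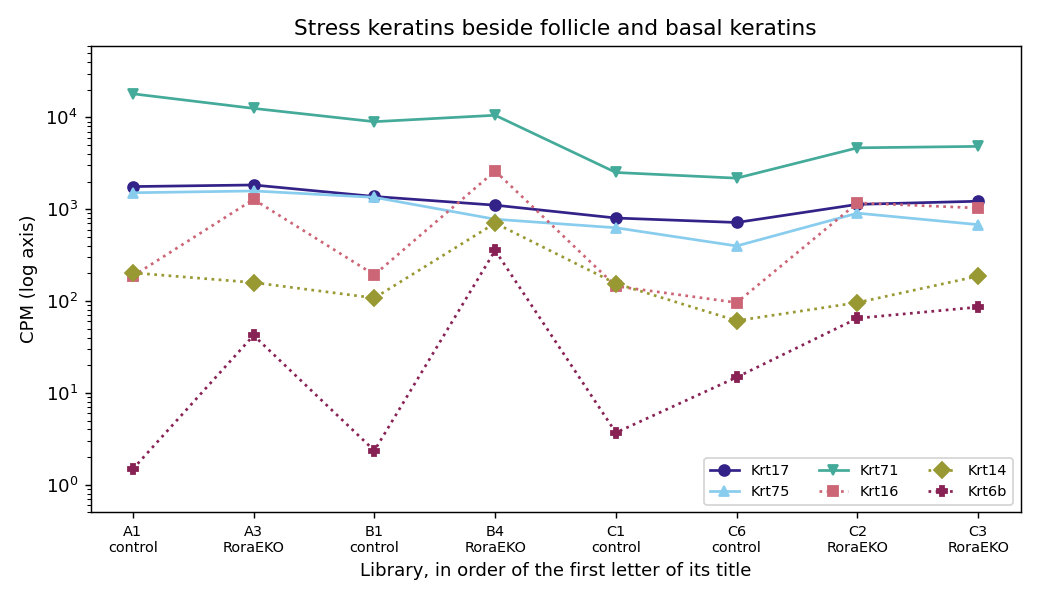
CPM of 6 keratins on a log axis in the 8 libraries, ordered by title letter. Krt17, Krt75 and Krt71 (solid lines) are keratins found in follicles, Krt16 and Krt6b are stress keratins and Krt14 is basal (dotted lines), and lines only join the points of a gene. Krt17 and Krt75 run from 1765 and 1511 CPM in A1 to 717 and 398 CPM in C6, while Krt16 and Krt6b are higher in each RoraEKO library than in each control.

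Library B4, which had the highest Krt6a, Krt6b and Krt16, also had the highest Krt14 and Krt5. Through these 2 genes its 5 interfollicular basal markers summed to 1142 CPM, against 189 to 285 CPM in the other RoraEKO libraries and 151 to 470.3 CPM in control. Krt14 was 706 CPM in B4 and 96.2 to 187 CPM in A3, C2 and C3, and Krt5 was 371 CPM and 63.4 to 78.1 CPM. Of the other basal markers, Itgb4 (7.73 CPM in B4) and Col17a1 (52.1 CPM in B4) were higher in the control A1, at 9.93 and 53.6 CPM, and Itga6 was 5.88 CPM in B4 and 5.87 CPM in C1. The part of the basal share in the levels of B4 was not tested, and the values without B4 are given with Krt6a, Krt6b, their sum and Krt16. Among the other cell types, no list of markers was separate between the groups in its summed level except the spinous list. That list was separate through Krt1 and Krt10, and its genes Krtdap and Sbsn overlapped between the groups. The summed T cell markers were 10.8 to 27.8 CPM in control and 8.42 to 41.1 CPM in RoraEKO, those of Langerhans cells 210.5 to 268 and 205 to 259 CPM, and those of neutrophils 3.65 to 15.6 and 8.34 to 12.3 CPM. Single genes carried some of these sums, as Epcam, which keratinocytes can also express, was 102 to 208 CPM in control and Cd207 at most 3.12 CPM in any library. In the neutrophil list S100a8, also on the list of alarm genes, was 3.23 to 15.1 CPM in control, and Ly6g was at 0 in all libraries but C2 (0.0964 CPM). The 3 erythroid markers summed to 31.8 to 215 CPM in control and 83.5 to 666 CPM in RoraEKO, with log2 fold changes of 1.67 to 1.94 and adjusted p of 0.165 to 0.279 in edgeR. The 4 melanocyte markers summed to 23.8 to 54.1 and 16.4 to 32.3 CPM. Among these, Pmel did not overlap between the groups (log2 fold change -0.84, adjusted p = 0.104, edgeR), and Dct had a log2 fold change of -0.95 (adjusted p = 0.128, edgeR). The part of these cell types in the stress keratin levels was not tested. In the inner root sheath list 1 gene, Gata3, was past the cutoffs, lower in RoraEKO (126 ± 36.3 and 74.3 ± 8.64 CPM, log2 fold change -0.77, adjusted p = 0.0493, edgeR), a call that was lost in most of the fits without a single library.

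Genes of the barrier alarm and wound response, which are known to accompany stress keratins in damaged epidermis, were followed as a list of 34. Of these, 23 passed the filter on low counts. In edgeR 6 were past the cutoffs upward and 0 downward, beside 2.3% and 3.22% of all genes tested. The median was 0.76 on the log2 scale beside -0.04 over all genes. The list was chosen with earlier results of these data known, so these values are a description. The filter lets in genes that are high in RoraEKO alone, and among genes with at least 10 counts in every library the count was 4. DESeq2 called 9 higher and 0 lower, beside 3.64% and 4.21% of all genes, and gave no adjusted p for Sprr1b and Sprr2d. At an unadjusted p below 0.05 in edgeR, 12 were higher and 0 lower, beside 7.92% and 10.3%. Without B4 the edgeR count was 6, and without both C1 and C6, or without B1, C1 or C6 alone, it was 3. It was 10 without A3.

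The member of that list with the steadiest values was Stfa2, a stefin that inhibits cysteine proteases. It stood at 87.1 to 94.3 CPM in the 4 controls and 468 to 656 CPM in RoraEKO (90.9 ± 2.95 and 553 ± 79.8 CPM, log2 fold change 2.61, adjusted p = 2.34e-05, edgeR). Sprr1b and Sprr2d encode small proline-rich proteins of the cornified envelope. Sprr1b was 16.9 to 73.6 CPM in control and 128 to 633 CPM in RoraEKO (log2 fold change 2.85, adjusted p = 0.0344, edgeR). Sprr2d was 1.09 to 1.61 CPM in control and 6.54 to 86.8 CPM in RoraEKO (4.42, adjusted p = 0.0228, edgeR), and B4 held the highest value of both genes. Both calls were lost without B1, C1 or C6 alone, with adjusted p of 0.0568 to 0.111 in edgeR, and without C1 and C6 together (0.203 for Sprr1b and 0.163 for Sprr2d) or with Xist as a covariate (0.158 and 0.121). Without B4 the calls were kept with smaller log2 fold changes, 1.92 for Sprr1b (adjusted p = 0.0474, edgeR) and 2.58 for Sprr2d (adjusted p = 0.00078, edgeR).

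The cytokines of the list past the cutoffs were Il36b, Il33 and Tslp. Il36b, an interleukin of the IL-1 family, was 43.3 to 81.9 CPM in control and 97.6 to 179 CPM in RoraEKO (log2 fold change 1.28, adjusted p = 0.011, edgeR). Il33, an alarmin, was 0.142 to 0.492 CPM in control and 0.457, 14.9, 3.42 and 2.95 CPM in A3, B4, C2 and C3 (log2 fold change 3.96, adjusted p = 0.035, edgeR). The Il33 groups overlapped, since A3 was within the control range, and on leaving out single libraries the call was kept only without A3. The log2 fold change without B4 was 2.71 (adjusted p = 0.0618, edgeR). Tslp, a keratinocyte cytokine that acts on immune cells, had at most 1 count in any control library and 0.863 to 1.7 CPM in RoraEKO. Against a floor of 3 counts in each control library, its mean was at least 9.49-fold higher. Since Tslp entered the test through its RoraEKO libraries, its place among the 6 is a description. This bound, 3.25 on the log2 scale, lies above the list median, so putting Tslp at it could not move the median of 0.76.

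Ligands and receptors of the EGF receptor family were followed as a list. The EGF receptor drives stress keratin expression in cultured keratinocytes. Of 11 tested genes for ligands and receptors, 1 was past the cutoffs upward and 1 downward, and their median was 0.18 on the log2 scale. Epgn, which encodes the ligand epigen, was 1.14, 0.929, 0.521 and 0.863 CPM in A1, B1, C1 and C6, and 5.16, 34.8, 11.2 and 9.64 CPM in A3, B4, C2 and C3 (log2 fold change 4.13, SE 0.608, adjusted p = 0.00409, edgeR). Btc, which encodes betacellulin, was 80.5, 137, 103 and 198 CPM in the same controls and 6.85, 3.74, 11.9 and 8.29 CPM in RoraEKO. Btc fell by 4.07 on the log2 scale (SE 0.444, adjusted p = 0.000535, edgeR). The groups did not overlap for either ligand. Without both C1 and C6 the call of Epgn was lost (log2 fold change 3.92, adjusted p = 0.0614, edgeR) and that of Btc was kept (-3.78, adjusted p = 0.00486, edgeR). The receptor gene Egfr was 47.6 ± 4.36 CPM in control and 57 ± 7.26 CPM in RoraEKO (SD, n = 4 each), and its log2 fold change was 0.26 (adjusted p = 0.319, edgeR).

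Transcription factors and signal proteins known to act on stress keratin genes, such as those of the AP-1, STAT, NF-κB and NRF2 groups, had 0 of 22 tested genes past the cutoffs in edgeR and 0 in DESeq2. The count was 1 with the title letter as a block and without A3 or C6 alone. It was also 1 with all genes of at least 1 count and with no fold cutoff. At an unadjusted p below 0.05, 4 were higher and 1 was lower, beside 7.92% and 10.3% of all genes, and the median log2 fold change was 0.24. Stat3, chosen after its values were seen, missed the fold cutoff with a log2 fold change of 0.55 (76 ± 12.7 CPM in control and 111 ± 5.81 CPM in RoraEKO, adjusted p = 0.0488, edgeR), and its groups did not overlap. Of the 13 genes for filament anchors and partners, which tie keratin filaments to desmosomes and hemidesmosomes, 0 passed in edgeR, 1 was higher at an unadjusted p below 0.05 and DESeq2 called 1 higher. The gene with that unadjusted p was Eppk1 (epiplakin), at 82.5 ± 32 CPM in control and 189.8 ± 51.6 CPM in RoraEKO (a 2.3-fold difference, adjusted p = 0.0654, edgeR). Among 21 proliferation genes, 0 passed in edgeR, 2 were lower and 0 higher at an unadjusted p below 0.05, and DESeq2 called 1 lower. The median log2 fold change of that list was -0.19, and Mki67, a marker of cycling cells, was 7.85 ± 3.32 CPM in control and 7.46 ± 3.42 CPM in RoraEKO (log2 fold change -0.07, adjusted p = 0.961, edgeR). With the title letter as a block the count past the cutoffs was 1 for the anchors, 1 for the proliferation genes and 2 for the simple and other epithelial keratins.

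Genes with the most similar profiles were sought by the root mean square difference of log2 CPM over the 8 libraries, after each gene was centred on its control mean. For Krt16 the nearest with measurable control levels were Thbd, which encodes thrombomodulin (0.369), and Fgf3, a fibroblast growth factor (0.462). Thbd was 4.59 to 6.72 CPM in control and 48.4 to 66.8 CPM in RoraEKO. The homeodomain factor gene Pitx1 had a smaller distance (0.322), but it had at most 1 count in any control library and the distance depended on the prior count, at 1.12 with a prior count of 0.5 and 0.777 with 5. Thbd was then the nearest gene to Krt16, at 0.372 and 0.365. For Krt6a the nearest were Lce3f, a late cornified envelope gene (0.291), Cd101, a membrane protein of the immunoglobulin superfamily (0.489), and S100a9, a subunit of calprotectin (0.557). Lce3f was 0.328 to 0.647 CPM in control and 1.24 to 7.81 CPM in RoraEKO, with B4 highest, as for Krt6a.

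For Krt6b the nearest were Rptn, which encodes the cornified envelope protein repetin (0.832), Slc16a5, a monocarboxylate transporter gene (1.05), and 4732465J04Rik (1.12). Rptn was 32 to 58.3 CPM in control and 504 to 1552 CPM in RoraEKO. For Krt17 the nearest were Zdhhc14, a palmitoyltransferase gene (0.127), 1110035H17Rik (0.16) and Galc, which encodes galactosylceramidase (0.161), and each of these was highest in A1 or A3 and lowest in C6. Between members the distance was 1.03 for Krt6a and Krt16, 1.6 for Krt6b and Krt16, 1.86 for Krt6a and Krt6b, and 1.81 to 3.47 for Krt17 and any other member. The adjacent genes Krt6a and Krt6b were thus each nearer to Krt16 than to each other, a comparison that rests on the division of their shared reads.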

How the data were processed

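RNA-seq was done on 8 libraries of dorsal epidermis at postnatal day 4, peeled from the skin after a brief heat treatment and made into stranded mRNA libraries. Per the study's methods and the submitters' processing notes, the authors demultiplexed with bcl2fastq 2.20.0.422, trimmed with Skewer, mapped to GRCm39 with STAR 2.5.3a, and estimated counts with RSEM. They deposited expected counts of 55416 Ensembl genes, without scaling for library size or length. The annotation release was not given in the sources used here. Groups came from the sample labels. The header names stand 1 field to the left of their values, and columns were read in that order.

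Expected counts were rounded to whole numbers. Symbols and coordinates came from GENCODE release 39 of the mouse annotation, which held 54749 of the identifiers. Genes were filtered with filterByExpr (13147 left), given TMM factors and fitted with no covariate by edgeR 4.0.16 (R 4.3.3), using the legacy form of its quasi-likelihood test. A gene was past the cutoffs with an adjusted p (Benjamini-Hochberg, over all genes tested) below 0.05 and a change of more than 1.5-fold. Standard errors are of the difference of mean log2 CPM with a prior count of 2. Differences between members used an exact two-sided permutation test over 70 relabellings (scipy 1.17.1). Intervals are at 95%.

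The members and lists were chosen with earlier results of these data known. Named genes were the members, Rora, Xist, Ddx3y, the 3 genes nearest to each member, and each gene of a list past the cutoffs, up to 6 per list. Krt1, Krt5, Krt10, Krt14, Krt71, Krt75, Egfr, Stat3, Eppk1, Mki67 and Gata3 were added as neighbours, partners or markers after their values were seen. So were Pmel, Dct, Itga6, Itgb4, Col17a1, Sox9, Barx2, Lhx2, Gjb6, Epcam, Cd207, S100a8, Ly6g, Krtdap and Sbsn. Results were recomputed with DESeq2 1.42.0, scaling by RLE or by library size only, other edgeR tests, other filters, cutoffs and prior counts, the title letter as a block, Xist as a covariate, the summed Krt6 genes and leaving out libraries.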

Additional observations from a re-analysis of the deposited data

Results flagged for a closer look

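Within each group of 4 libraries, a library was picked out where its gap to the nearest other library was a larger part of the range of the group than Dixon's 95% critical value for 4 samples. The rule was applied to the CPM of the 4 members in both groups, and chance picks out about 1 in 20 groups. B4 stood apart in 3 genes of the RoraEKO group, with a gap of 0.907 of the range for Krt6a (111 CPM), 0.861 for Krt6b (356 CPM) and 0.842 for Krt16 (2609.5 CPM). In the RoraEKO group A3 stood apart for Krt17, with a gap of 0.843 (1837 CPM). Among controls C6 stood apart for Krt6b, with a gap of 0.834 (14.8 CPM).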

How the results depend on the processing

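The 3 calls and the differences between members were recomputed under other settings. Each of the 6 differences kept its sign in its 11 alternatives. Leaving out single libraries gave 0.87 to 2.27 for Krt6b minus Krt16 and 0.52 to 1.34 for Krt16 minus Krt6a. For Krt6a minus Krt17 it gave 1.37 to 2.56. Over all 11 alternatives these differences ran from 0.87 to 2.71, 0.48 to 1.34 and 1.37 to 2.69, in that order. Krt16 was past the cutoffs in all 22 alternatives (highest adjusted p 0.019). Krt6b was past them in 20 of 22 and Krt6a in 12 of 22, over log2 fold changes of 3.52 to 6.24 and 1.60 to 2.99, with adjusted p from 1.47e-05 to 0.0676 and from 0.000861 to 0.19. Beside the losses given with each gene, Krt6a missed the cutoff in the robust test (adjusted p = 0.0596) and with Xist as a covariate (2.69, adjusted p = 0.154). Krt17 was past the cutoffs in none of its 22 alternatives, and its sign was reversed with Xist as a covariate (-0.27, adjusted p = 0.602) and without both C1 and C6 (-0.19). The number of members past the cutoffs was 1 to 3 on leaving out single libraries, and 1 (Krt16) without B1 or without C1. The 725 genes past the cutoffs became 472 with Xist as a covariate (182 higher, 290 lower), 314 without both C1 and C6 (147 higher, 167 lower), 999 with the title letter as a block (420 higher, 579 lower), 1009 in the likelihood ratio test, 987 in the exact test, 1031 in DESeq2, and 457 to 896 without single libraries, with 457 without B1 and 475 without C3. The cause of these changes was not tested. The barrier alarm count of 6 was also 3 with Xist as a covariate and 10 in the likelihood ratio and exact tests. The fits of single genes outside the group were compared across settings after seeing the data. Genes that were not past the cutoffs changed sign in some fits, with log2 fold changes for Rora of 0.18 with Xist as a covariate and 0.21 without both C1 and C6, and for Mki67 of 0.06 and 0.13. Without single libraries those for Rora ran from -0.23 to 0.15, for Mki67 from -0.42 to 0.22 and for Krt5 from -1.23 to 0.10. The groups share no replicate numbers, so the title letter, whose meaning was not stated, was the block in the matched fit, and its values are given with the members and lists. The distances to the nearest genes were recomputed with prior counts of 0.5 and 5, chosen after seeing the data. Lce3f, Rptn, Thbd, Fgf3 and Zdhhc14 were among the 3 nearest to their member under both, and the other genes named for their distance were not under at least 1 of them. Krt6a held 63.96 to 262.88 and Krt6b 39.35 to 394.24 expected counts in the control libraries, the lowest of the members, and whether counting error limits their precision was not tested.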
